A study of Zea mays with 8 samples.

Results

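Maize seedlings grown from 2 seed sources, named 49647-3self and 49646-1self in the labels, were compared across all 8 arrays of the series. Replicates 1 and 3 came from 49647-3self and replicates 2 and 4 from 49646-1self, and each replicate holds a wild-type pool and a DpDf pool, so each source has 4 arrays. Every difference is given as 49647-3self minus 49646-1self on the log2 scale, with genotype as a covariate. Each replicate number is a planting of its own, so sowing differs within each source, and a source is represented by only 2 sowings. The labels give no sowing date, and they do not say whether both sowings of a source used seed of 1 ear.

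All plants were in the B73 inbred background and were progeny of self-pollinated DpDf plants of the T5-6b translocation stock. Wild-type siblings carry no translocation chromosome by the marker used. DpDf (duplicate-deficient) siblings carry 1 normal chromosome 6 and 1 translocation chromosome that lacks the tip of the chromosome 6 satellite and holds most of an extra short arm of chromosome 5. For each replicate 30 greenhouse plants were typed with a marker linked to the chromosome 5 break, and 12 wild-type and 12 DpDf plants were pooled. The whole shoot above the brace roots was taken on day 11 after planting, and its RNA was read on an Affymetrix maize array, on which a probe set of short oligonucleotides stands for a transcript.

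A seed lot of an inbred line carries the history of its mother plant: how the kernels filled, dried and were stored, and any segment at which the line was not yet fixed. In a young shoot, tissue that is still dividing and elongating expresses kinesins, replication factors, DNA methyltransferases and cellulose synthases. Expanded leaf expresses the photosynthetic genes, and glutathione S-transferases, which couple glutathione to reactive or foreign compounds, respond to many kinds of stress.

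No probe set passed an adjusted p of 0.05 for seed source among the 12288 tested (0%, limma with Benjamini-Hochberg adjustment), and the smallest adjusted p was 0.0798. Without adjustment 1691 probe sets, 13.8%, had p under 0.05, of which 1102 (8.97%) were higher in 49647-3self and 589 (4.79%) lower. The 4 arrays of 49647-3self all lay above the 4 of 49646-1self for 676 probe sets (5.5%) and all below for 331 (2.69%). Overlap was judged here and below over wild-type and DpDf arrays together, so a genotype difference can produce it. The typical probe set had a 95% interval of its difference plus or minus 0.208, and 13 probe sets differed by 1 or more in either direction. The genes named below are therefore those of smallest p in each direction, and none of them passed the adjusted threshold. The p-values rest on the spread among arrays, with 1 correlation within sowings (0.225) used for all probe sets. A probe set's own spread between the 4 sowings therefore enters its SE and p only in part. With 1 value per sowing, the smallest adjusted p in limma was 0.393.

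Array medians lay between 135.6 and 142.3 intensity units. The 3′ minus 5′ signal of control transcripts, a measure of RNA integrity, averaged 1.02 ± 0.34 (SD, n = 4) in 49647-3self and 1.08 ± 0.0978 (SD, n = 4) in 49646-1self on the log2 scale. In 49647-3self, DpDf replicate 1 stood apart at 1.52, with its other arrays between 0.794 and 0.98. Spike-in controls averaged 9.26 ± 0.216 (SD, n = 4) in 49647-3self and 9.45 ± 0.152 (SD, n = 4) in 49646-1self, a log2 difference of -0.182. All 3 mesophyll and all 3 bundle sheath markers passed the low-signal limit, against 2 of 12 endosperm, 1 of 7 embryo and 2 of 12 reproductive markers. The summed signal of 5 shoot meristem markers ran from 471 to 690 in 49647-3self and from 552 to 667 in 49646-1self, so the ranges overlap. The 3 of them that passed the low-signal limit all had a lower mean in 49647-3self. Their median difference was -0.17, and 0 had an unadjusted p under 0.05. In pooled tissue, a change in the share of a cell type and a change in RNA per cell cannot be told apart.

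The sources differed about as much as sowings of 1 source did. Over the tested probe sets the source difference had an SD of 0.175, while replicate 1 minus replicate 3 had an SD of 0.255 and replicate 2 minus replicate 4 an SD of 0.205. A sowing difference averages 2 arrays a side and the source difference 4, so array noise widens the SD of a sowing difference more, and shares of variance per contrast are the fairer measure. Seed source took 18.5% of the variance among arrays, genotype 28.9%, replicate 1 against 3 19.7% and replicate 2 against 4 12.7%. The sources overlapped on the first and second principal components, with 32.1% and 27.4% of the variance. On the third, with 19.8%, the 4 arrays of 49647-3self lay between 2.24 and 12.6 and the 4 of 49646-1self between -18.1 and -3.84. The source differences measured in wild type and in DpDf pools, which share their sowings, correlated at r = 0.529 over 12288 probe sets, and 67.5% of them had the same sign. Sowing differences within a source correlated between the genotypes at r = 0.423 and r = 0.389.

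Among 916 named genes, 112 (12.2%) had an unadjusted p under 0.05, and 0 (0%) passed the adjusted threshold. Of the 112, 76 (8.3%) were higher and 36 (3.93%) lower in 49647-3self. The arrays of the sources did not overlap for 36 genes that were higher (3.93%) and 22 that were lower (2.4%). Their mean was higher for 490 genes (53.5%) and lower for 426 (46.5%), and the median difference was 0.01.

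**Figure D1:**
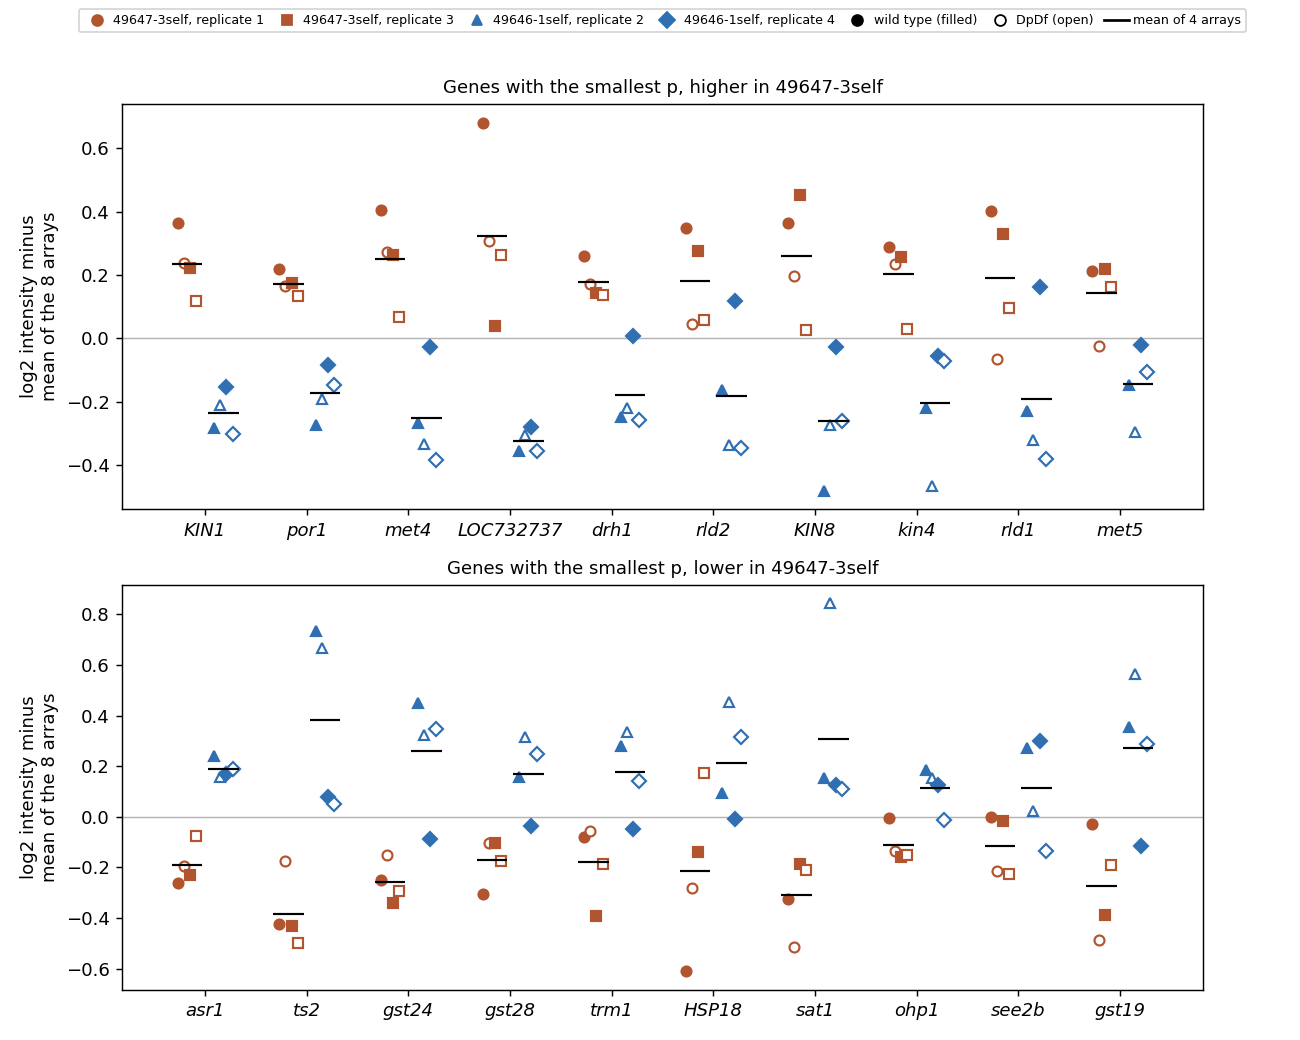
Log2 intensity in each array, minus the mean of the 8 arrays, for the 10 named genes of smallest p in each direction. Colours mark the seed sources, symbols the replicates, filled symbols wild type, open symbols DpDf and black lines the mean of 4 arrays. The arrays of the sources stand apart for KIN1 and asr1 and overlap for rld1, rld2, met5, HSP18, ohp1, see2b and gst19. Of the overlapping genes, only gst19 also overlaps within a genotype, the wild type.

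Kinesins, the motor proteins that move along microtubules, had higher means in 49647-3self. All 8 listed kinesin genes were tested and all 8 had a higher mean there, beside 53.5% of all named genes, with a median difference of 0.26 beside 0.01 over all named genes. KIN1 read 8.24 and 8.11 in wild-type and DpDf replicate 1 and 8.09 and 7.99 in replicate 3, against 7.59 and 7.66 in replicate 2 and 7.72 and 7.57 in replicate 4. The groups do not overlap, and each array of 49647-3self was above every array of 49646-1self. The difference was 0.47 ± 0.08 (SE), 1.39-fold, with an adjusted p of 0.201 in limma.

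KIN8 read 7.63, 7.46, 7.72 and 7.29 in wild-type and DpDf replicates 1 and 3, against 6.78, 6.99, 7.24 and 7.0 in replicates 2 and 4. Its arrays do not overlap either, though DpDf replicate 3 and wild-type replicate 4 came within 0.1 of each other. The difference was 0.52 ± 0.13 (SE) with an adjusted p of 0.217. For kin4 the difference was 0.41 ± 0.10 (SE), also without overlap. KIN13 at 0.32 had an unadjusted p under 0.05 with overlapping arrays, and KIN6, KIN9, kin11 and kin15 lay between 0.12 and 0.19. Over the 8 kinesins the median source difference was 0.38 in wild-type pools and 0.19 in DpDf pools, and it stayed between 0.19 and 0.38 under every alternative run.

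DNA replication and repair genes leaned the same way, with 10 of 11 tested genes higher in 49647-3self, beside 53.5% of all named genes. Their median was 0.12. MCM7, a subunit of the helicase that opens DNA at replication origins, read 8.67, 8.59, 8.58 and 8.55 in the arrays of 49647-3self and 8.03, 8.27, 8.40 and 8.34 in those of 49646-1self, and the groups do not overlap. Its difference was 0.34 ± 0.10 (SE) with an adjusted p of 0.237. MCM6, another subunit of the same helicase, differed by 0.27 ± 0.08 (SE) without overlap. Its other tested probe sets read 0.16 with overlap and 0.275 without. At an unadjusted p under 0.05, 3 of the 11 genes were higher and 0 lower, beside 8.3% and 3.93% of all named genes. The list median was 0.04 without both replicate 2 arrays and 0.20 without both replicate 4 arrays.

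In the cell cycle and centromere list 9 of 11 tested genes had a higher mean in 49647-3self, beside 53.5% of all named genes. The list median was 0.16. The 2 genes with a lower mean, cenH3 and cycD2, each differed by -0.05. CenpcA, a protein of the inner kinetochore, differed by 0.33 ± 0.11 (SE), and its arrays did not overlap. cyc2, a cyclin gene, differed by 0.20 ± 0.09 (SE) with overlap. The median of this list was 0.16 in wild-type pools and 0.03 in DpDf pools, 0.06 without both replicate 2 arrays and 0.01 when probe sets under the 50th percentile were left out. Of 12 tubulin genes 9 had a higher mean, beside 53.5% of all named genes, with a median of 0.07. The smallest p belonged to the gamma-tubulin gene TUBG (LOC542436) at 0.22 ± 0.07 (SE) and the beta-tubulin gene tub6 at 0.17 ± 0.08 (SE). Weaker probe sets of TUBG read 0.19 and 0.09, and the other probe sets of tub6 between 0.07 and 0.15.

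DNA methyltransferases, which place methyl groups on cytosine, had the highest list median. Of 5 tested genes 4 had a higher mean in 49647-3self, beside 53.5% of all named genes. All 4 had an unadjusted p under 0.05, beside 8.3% of all named genes that were higher at that level. The list median was 0.30. met4 read 6.61, 6.47, 6.46 and 6.27 in 49647-3self and 5.94, 5.87, 6.18 and 5.82 in 49646-1self. These groups do not overlap, and the difference was 0.50 ± 0.10 (SE), 1.42-fold, with an adjusted p of 0.217. met5 differed by 0.29 ± 0.08 (SE), with DpDf replicate 1 at 9.09 just under wild-type replicate 4 at 9.10, and its other tested probe sets read 0.32 and 0.35. The gene of this list with a lower mean, dmt106, differed by -0.05.

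Other chromatin genes showed smaller differences. hda113, a histone deacetylase gene, read 7.55, 7.58, 7.35 and 7.37 against 6.96, 7.14, 7.23 and 7.21 without overlap, a difference of 0.33 ± 0.10 (SE) with an adjusted p of 0.237. A weaker hda113 probe set read 0.26 with overlap. The other 8 deacetylase genes had a median of 0.03, with hda110 at 0.17 ± 0.08 (SE), and all 9 had a median of 0.05, or -0.02 without both replicate 2 arrays. mez1, an Enhancer of zeste homologue of the Polycomb group, differed by 0.25 ± 0.08 (SE), and the SET domain gene sdg118 by 0.22 ± 0.10 (SE). In the Polycomb and SET list 9 of 11 genes had a higher mean (median 0.08), beside 53.5% of all named genes. In the list of other chromatin genes it was 17 of 25 (median 0.07). In the latter list the acetyltransferase gene hag101 at 0.20 and the bromodomain gene gte102 at 0.17 had the smallest p, and hac106 had a slightly larger difference of 0.21. Without both replicate 2 arrays the median of the last list was 0.01, and without wild-type replicate 2 that of the Polycomb list was 0.04.

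Cellulose synthase genes, which build the main polymer of the cell wall, had a higher mean in 49647-3self for all 13 tested members. Among all named genes that share was 53.5%. The median of the cellulose synthases was 0.15, with 0.11 to 0.17 under every alternative run, and the individual differences were small, from 0.04 to 0.24. cesa5 read 10.75, 10.65, 10.66 and 10.53 in 49647-3self and 10.38, 10.51, 10.41 and 10.34 in 49646-1self. The groups do not overlap, with 10.53 in DpDf replicate 3 and 10.51 in DpDf replicate 2 nearly meeting, and the difference was 0.24 ± 0.07 (SE) with an adjusted p of 0.253. cesa3 differed by 0.22 ± 0.07 (SE), again without overlap. Related family members can share probe sequence, and the part of cross-hybridisation was not tested.

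Expansins, which loosen the wall, went the other way from the cellulose synthases. Of 11 tested expansin genes 9 had a lower mean in 49647-3self, beside 46.5% of all named genes, with a median of -0.11. The beta-expansin gene expB7 differed by -0.25 ± 0.08 (SE) and expB5 by -0.33 ± 0.17 (SE), both with overlapping arrays. None of the expansins separated the sources over all 8 arrays, though expB7 did within each genotype. Without both replicate 1 arrays the median turned to 0.03, and without wild-type replicate 1 it was -0.01.

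The homeobox list had 13 of 17 genes with a higher mean, beside 53.5% of all named genes. Its median was 0.10, or 0.04 without both replicate 2 arrays. rld1 and rld2, class III homeodomain-leucine zipper genes that set the upper face of the leaf, differed by 0.38 ± 0.10 (SE) and 0.36 ± 0.08 (SE). Over all 8 arrays both overlapped between sources. Wild-type replicate 4, at 10.11 for rld1 and 9.10 for rld2, lay above the DpDf arrays of 49647-3self. Within each genotype, the sources did not overlap for either gene. The probe sets of both genes belong to 1 sequence cluster of the array design and may read the same transcripts, so they do not count as separate observations. Of 7 tested epidermal markers 5 had a higher mean and 2 a lower one. ocl4 differed by 0.26 ± 0.09 (SE) with overlap and ocl3 by 0.19 ± 0.07 (SE) without, while gl1 differed by -0.39 ± 0.29 (SE) and gl8 by -0.14 ± 0.11 (SE). The summed signal of the 8 epidermal markers overlapped, from 4153 to 4884 in 49647-3self and from 4346 to 5432 in 49646-1self.

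The other genes of smallest p on the higher side belonged to no list. por1, a porin of the outer mitochondrial membrane, read between 10.00 and 10.09 in 49647-3self and between 9.59 and 9.78 in 49646-1self. That is a difference of 0.35 ± 0.07 (SE) with an adjusted p of 0.217, but a second, weaker por1 probe set differed by 0.01. drh1, a DEAD-box RNA helicase gene, differed by 0.36 ± 0.08 (SE) and LOC732737 by 0.65 ± 0.14 (SE), both without overlap. LOC732737 read 7.59 in wild-type replicate 1, well above 7.22, 6.95 and 7.17 in the other arrays of its source.

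**Figure D2:**
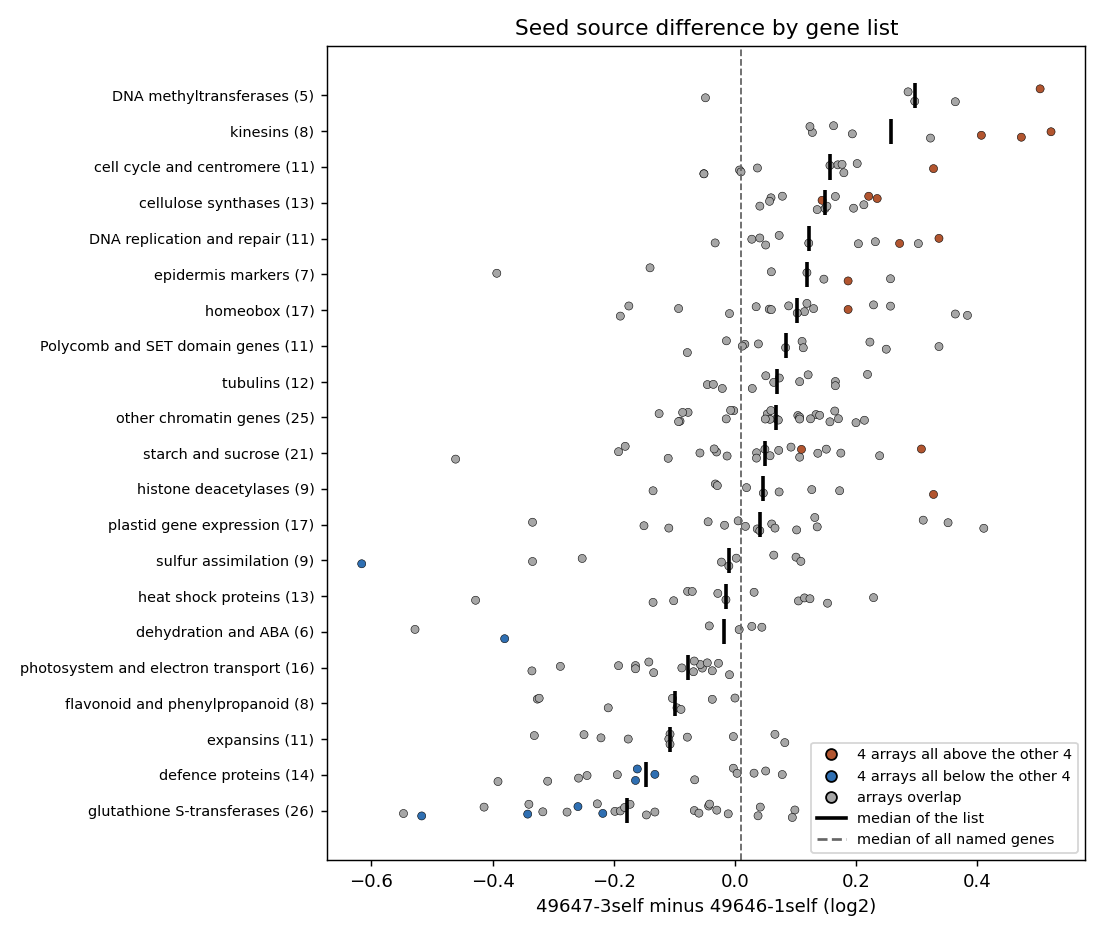
Difference between seed sources (49647-3self minus 49646-1self, log2) of each tested gene in 20 gene lists and the epidermal markers, with the number of tested genes in brackets. Points are genes, coloured where the arrays of the sources do not overlap, thick black lines are list medians and the dashed line is the median of all named genes; all 8 kinesins and all 13 cellulose synthases lie above 0 and all 16 photosystem genes below it.

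On the lower side, asr1 had the smallest p of any named gene. This abscisic acid-, stress- and ripening-induced gene encodes a small hydrophilic protein linked to drying tissue. It read 12.16, 12.23, 12.20 and 12.35 in 49647-3self and 12.67, 12.58, 12.59 and 12.61 in 49646-1self. The groups do not overlap, and the gap between the sources exceeded the range within either. The difference was -0.38 ± 0.06 (SE), 1.30-fold lower, with an adjusted p of 0.163, and a second asr1 probe set read -0.22 ± 0.20 (SE). The dehydration and ABA list was split: 3 of 6 tested genes had a lower mean, and the dehydrin gene dhn1 differed by -0.53 ± 0.38 (SE).

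Glutathione S-transferases were mostly lower in 49647-3self. Of 31 listed genes 26 passed the low-signal limit, and 22 of these had a lower mean, beside 46.5% of all named genes, with a median of -0.18. At an unadjusted p under 0.05, 8 of the 26 were lower and 0 higher, beside 3.93% and 8.3% of all named genes. gst24 read 5.86, 5.96, 5.77 and 5.82 in 49647-3self and 6.56, 6.43, 6.02 and 6.46 in 49646-1self. These groups do not overlap, with wild-type replicate 4 the nearest, and the difference was -0.52 ± 0.13 (SE), 1.43-fold lower, with an adjusted p of 0.217. gst28 differed by -0.34 ± 0.09 (SE), also without overlap.

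gst19 read 7.96, 7.51, 7.61 and 7.80 against 8.35, 8.56, 7.88 and 8.28. Here wild-type replicate 4 fell inside the range of the other source, and the difference was -0.55 ± 0.17 (SE). gst6 at -0.22 and gst17 at -0.26 were the other members without overlap. The GST median was -0.11 in wild-type pools and -0.15 in DpDf pools. Relative to each gene's mean over the 8 arrays, the median GST level was lowest in wild-type replicate 1, at -0.18. It was near 0 in both replicate 3 pools, at 0.01 and -0.01. Replicate 1 minus replicate 3 had a median of -0.11 over the list, so the replicate 1 sowing was the lower of the 2. Single members varied, with -0.065 for gst28, 0.03 for gst19 and 0.12 for gst24. The list median was -0.09 without both replicate 1 arrays and -0.12 without wild-type replicate 1.

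Sulfur supply genes were read beside the GSTs because glutathione contains cysteine, and this list was drawn up after values had been seen. sat1, a serine acetyltransferase gene that feeds cysteine synthesis, read 7.78, 7.59, 7.92 and 7.89 in 49647-3self and 8.26, 8.95, 8.23 and 8.21 in 49646-1self. The groups do not overlap, and DpDf replicate 2 stood far above the rest of its source. The difference was -0.62 ± 0.19 (SE) with an adjusted p of 0.247, and the related sat2 differed by -0.33 ± 0.13 (SE). The other sulfur genes did not follow, since 4 of 9 tested members had a higher mean and the list median was -0.01.

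Photosystem and electron transport genes had a lower mean in 49647-3self for all 16 tested members, beside 46.5% of all named genes. The differences in the photosystem list were small, with a median of -0.08, and no gene of the list separated the arrays of the sources. fdx2, a ferredoxin gene, differed by -0.34 ± 0.15 (SE) and pgr5, which acts in cyclic electron flow, by -0.29 ± 0.13 (SE), with a second pgr5 probe set at -0.40 ± 0.10 (SE). Within the sources, the median of the list was 0.13 higher in replicate 1 than in replicate 3 and 0.13 higher in replicate 2 than in replicate 4, so it differed more between sowings than between sources. The median source difference was -0.02 without both replicate 2 arrays or without both replicate 3 arrays, and -0.14 without replicate 1 or replicate 4. trm1, which encodes an m-type thioredoxin of the chloroplast, read between 12.07 and 12.41 in 49647-3self and between 12.42 and 12.80 in 49646-1self. Its difference was -0.36 ± 0.10 (SE) with an adjusted p of 0.229.

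Nuclear genes for plastid gene expression did not share this direction, and their list too was drawn up after values had been seen. Of 17 tested genes 12 had a higher mean, beside 53.5% of all named genes. The list median of 0.04 turned to -0.03 without wild-type replicate 1. rpo2 differed by 0.41 ± 0.13 (SE) and crp1, needed for translation and processing of chloroplast transcripts, by 0.35 ± 0.13 (SE), both with overlap. tha9, a gene of thylakoid protein transport in the same list, differed by -0.33 ± 0.12 (SE). In the starch and sucrose list, zpu1, a pullulanase-type debranching enzyme gene, differed by 0.31 ± 0.09 (SE) and the fructokinase gene frk2 by 0.11 ± 0.04 (SE), both without overlap. The list median of 0.05 was 0.01 without wild-type replicate 2, 0.10 without DpDf replicate 1 and within 0.01 of 0 without both replicate 3 arrays and in DpDf pools alone.

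ts2, which encodes the short-chain dehydrogenase that aborts pistils in the tassel, had the largest difference of any named gene. It read 5.41, 5.65, 5.40 and 5.33 in 49647-3self, against 6.56 and 6.50 in replicate 2 and 5.91 and 5.88 in replicate 4. The sources do not overlap, but the replicate 2 sowing stood above the replicate 4 sowing by 0.63, nearly as much as the source difference of -0.76 ± 0.18 (SE), 1.70-fold lower, with an adjusted p of 0.217. ohp1, a bZIP gene whose protein pairs with OPAQUE2, differed by -0.23 ± 0.07 (SE), and see2b, a senescence-associated protease gene, by -0.23 ± 0.07 (SE), both with overlap.

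Among heat shock genes the members pointed in both directions. HSP18, a small heat shock protein gene, read 8.88, 9.21, 9.35 and 9.66 in 49647-3self and 9.58, 9.94, 9.48 and 9.80 in 49646-1self. DpDf replicate 3 overlapped the other source, and the difference was -0.43 ± 0.13 (SE). The chaperonin gene CPN60I differed by 0.23 ± 0.08 (SE), and the median over 13 genes was -0.01. HSP18 passed the adjusted threshold when both replicate 3 arrays were left out, at -0.66 with an adjusted p of 0.0495, and its adjusted p was 0.237 with all arrays.

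Defence proteins and phenylpropanoid genes leaned lower in 49647-3self. In the defence list 10 of 14 tested genes had a lower mean, beside 46.5% of all named genes. Without overlap were 3, beside 2.4% of all named genes, and 1 had an unadjusted p under 0.05, beside 3.93%. The median of the defence list was -0.15, with the cystatin gene cc7 at -0.13 ± 0.05 (SE) and hir3 at -0.19 ± 0.09 (SE). This median was -0.09 without both replicate 1 arrays and -0.07 under the 50th percentile limit. In the flavonoid and phenylpropanoid list 7 of 8 genes had a lower mean, beside 46.5% of all named genes. Its median was -0.10, or -0.02 without both replicate 2 arrays. pl1, a regulator of anthocyanin synthesis, differed by -0.33 ± 0.12 (SE) and ccr2, a cinnamoyl-CoA reductase gene, by -0.32 ± 0.14 (SE), both with overlap. The 14 lists not described had medians between -0.15 and 0.04, with that of the 3 histone genes at 0.002.

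**Figure D3:**
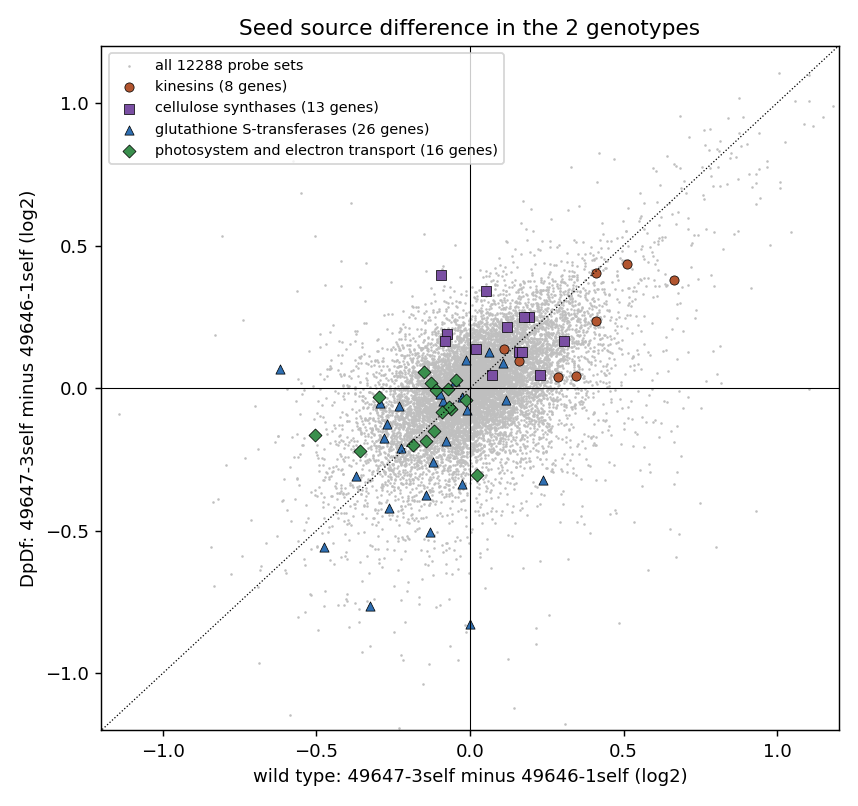
Seed source difference (log2) in wild-type pools on the horizontal axis and in DpDf pools on the vertical axis, for all 12288 probe sets in grey and for 4 gene lists in colour; the dotted line marks equal differences and 12 probe sets lie outside the plotted range of 1.2. All 8 kinesins are above 0 in both genotypes, and the correlation over all probe sets is 0.529.

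The source difference was measured separately in each genotype and its interaction with genotype was tested. No probe set passed the adjusted threshold for the interaction in limma, and 503 probe sets (4.09%) had an unadjusted p under 0.05. The smallest adjusted p was 0.995. KIN1 differed between sources by 0.51 in wild-type pools and 0.44 in DpDf pools, asr1 by -0.45 and -0.31, and gst24 by -0.48 and -0.56. sat1 differed by -0.39 and -0.84 and gst19 by -0.33 and -0.77, the widest gaps between genotypes among the 20 genes of smallest p.

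Across the genome, the 882 placed genes had a median difference of 0.01. By chromosome, the medians ran from -0.01 on the long arm of chromosome 5 (44 genes) to 0.04 on its short arm (55 genes). Most of the short arm of chromosome 5 is present in an extra copy in the DpDf pools of both sources. Of its 55 genes, 8 were higher and 1 lower in 49647-3self at an unadjusted p under 0.05, beside 8.3% and 3.93% over all named genes. Chromosome 8 had 8 higher and 3 lower of 68 genes, chromosome 1 had 18 and 10 of 158, and chromosome 3 had 3 and 4 of 83.

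The 3 probe sets of smallest p have no gene in the annotation, as is the case for 91.1% of the tested probe sets. Zm.6208.1.A1_at read 8.51, 8.47, 8.52 and 8.52 in 49647-3self and 8.99, 9.02, 9.04 and 9.09 in 49646-1self. The 4 arrays of each source nearly coincide, and the sources stand well apart. The difference was -0.53 ± 0.06 (SE) with an adjusted p of 0.0798.

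Zm.2829.1.S1_at read 6.63, 6.81, 6.57 and 6.54 against 7.39, 7.33, 7.37 and 7.33, a difference of -0.72 ± 0.09 (SE). Zm.5362.1.A1_at read 6.31, 6.49, 6.43 and 6.53 against 5.70, 5.84, 5.68 and 5.78, a difference of 0.69 ± 0.08 (SE). Both had the same adjusted p of 0.0798, and neither overlapped. All 3 passed the adjusted threshold when the sowing block was dropped, with adjusted p of 0.032, 0.0358 and 0.032.

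A probe set just under the low-signal limit had a larger log2 difference between sources than any that was tested. Its SD was 0.375 in 49647-3self and 0.415 in 49646-1self, against 0.0226 and 0.0401 for the tested Zm.6208.1.A1_at. Zm.9955.1.A1_at, which has no gene name in the annotation, had a linear intensity of 42.1 in wild-type replicate 1, 64.2 in DpDf replicate 1, 38.4 in wild-type replicate 3 and 61.2 in DpDf replicate 3. In 49646-1self it had 10.8 and 18.3 in wild-type and DpDf replicate 2 and 13.3 and 20.1 in replicate 4. Both sowings of 49647-3self lay above both sowings of 49646-1self in each genotype. The reporter probe sets, made for genes not of maize, averaged between 2.72 and 2.78 on the log2 scale, and Zm.9955.1.A1_at averaged 5.65 in 49647-3self and 3.92 in 49646-1self.

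Its mean of 4.78 fell below the limit of 4.80, so it was not among the 12288 probe sets. When all 17555 probe sets were fitted, it was the only one called: the difference was 1.73 ± 0.10 (SE), 3.32-fold, with an adjusted p of 0.000835. With a pseudocount of 16 the difference was 1.08, with an adjusted p of 0.00127, so the fold depends on how low signal is treated. The fold was 3.36 in wild-type pools and 3.28 in DpDf pools. It was also higher in DpDf than in wild-type pools, by 0.66 ± 0.08 (SE) with an adjusted p of 0.00237 in the same fit. Without both replicate 2 arrays its difference was 1.62 and its adjusted p 0.0724. Detection calls were not used here, so whether the lower values exceed background was not tested.

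Of the 13 tested probe sets that differed by 1 or more, 8 were higher in 49647-3self and 5 lower. All 8 higher ones kept the arrays of the sources apart, as did 2 of the lower ones. Over all tested probe sets those shares were 5.5% and 2.69%. The 13 were picked for a large difference in these same arrays, which favours such separation, so the count is no separate result. None of the 13 has a gene name, beside 91.1% of all tested probe sets without one. Zm.17533.1.S1_at differed most on the higher side, at 1.1 ± 0.25 (SE), and Zm.18270.1.A1_at differed by 1.08 ± 0.20 (SE). Wild-type replicate 1 was the highest array for 7 of the 8, and wild-type replicate 2 the lowest for 6, so these probe sets also differed between sowings of 1 source.

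On the lower side, Zm.13321.1.A1_at read 8.26, 9.07, 8.68 and 9.26 in 49647-3self and 9.76, 9.87, 9.81 and 9.95 in 49646-1self. Its 49646-1self arrays were tight and its 49647-3self arrays spread by genotype, and the difference was -1.03 ± 0.16 (SE) with an adjusted p of 0.163. Zm.7899.1.A1_at differed by -1.21 ± 0.25 (SE), also without overlap. The other lower probe sets overlapped between sources. Among them was the largest difference of the 13, -1.415 ± 0.784 (SE), with an unadjusted p of 0.105 in limma. That probe set also differed between sowings, by 1.655 in 49647-3self and 2.405 in 49646-1self. The remaining ones differed by -1.029 ± 0.661 (SE) and -1.016 ± 0.603 (SE). Of 206 probe sets that differed by 0.5 or more, 10 varied by less than 0.15 between the sowings of each source, averaged over genotypes. Of these 10, 5 were higher and 5 lower in 49647-3self. Sowing differences of opposite sign in the genotypes can cancel in that average. For example, a lower one read 6.16 and 5.36 in wild-type replicates 1 and 3 but 4.98 and 5.76 in the DpDf pools. Its sources overlapped, so a small averaged difference does not show that a probe set was stable between sowings. None of the 10 has a gene name, which is near the share over all probe sets.

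**Figure D4:**
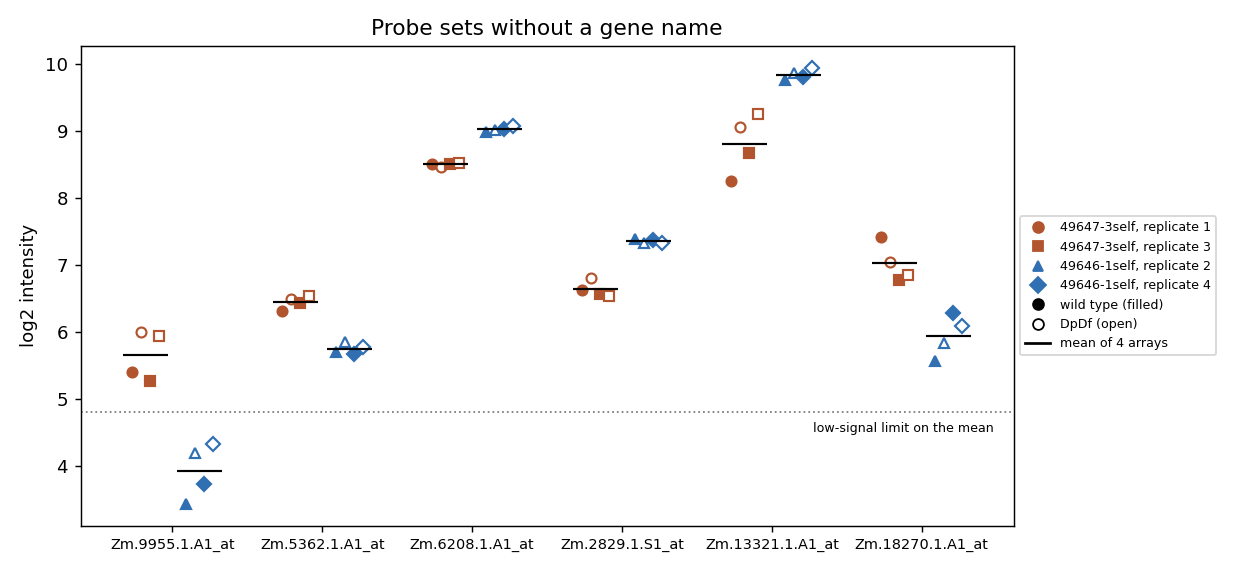
Log2 intensity in each array for 6 probe sets without a gene name, with colours for the seed sources, symbols for the replicates, filled symbols for wild type and open symbols for DpDf, and black lines for the mean of 4 arrays. The dotted line is the low-signal limit of 4.80 on the mean, and Zm.9955.1.A1_at lies just under it with means of 5.65 and 3.92. The 6 were picked for small p, large difference or lack of overlap in these same arrays. That the sources do not overlap in any of them is therefore no separate result. Over all tested probe sets, 5.5% were higher and 2.69% lower in 49647-3self without overlap.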

How the data were processed

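Each probe set has 1 deposited intensity per array, on a linear scale, and the submitters' processing notes name MAS5 with neither version nor role. They were taken to log2 without further normalization. Of 17734 probe sets, 113 array controls and 66 reporter probe sets were left out, and those with a mean under the 30th percentile (27.8 intensity units) were not tested, leaving 12288. Names were taken from the platform's annotation and brought up to date with RefSeq (Zm-B73-REFERENCE-NAM-5.0): 1452 probe sets had 1 gene and 1 had several, and 916 genes were tested, each by its probe set of highest mean. No RefSeq coordinates are given.

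Seed source was fitted with genotype in limma 3.58.1 (R 4.3.3; lmFit, then eBayes with trend) over all 8 arrays. Same-numbered pools share a sowing per the labels. Because sowings are nested in sources, replicate number entered as a random block (duplicateCorrelation, consensus correlation 0.225); a fixed block would absorb the source. P-values were adjusted by Benjamini-Hochberg over all tested probe sets. The code was tested on simulated data.

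Genes named are the 10 of smallest p in each direction, because fewer than 10 were called, and the 2 members of smallest p in each list described; others, and the unnamed probe sets, were chosen after their values were seen. The comparison, the lists and their members were chosen with earlier results of these data known. Alternatives covered the block, 1 value per sowing, normalization, filter, pseudocount, 3′ minus 5′ signal, trend, genotype term and left-out sowings and arrays. The number of arrays and sowings limits the precision.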

Additional observations from a re-analysis of the deposited data

Results flagged for a closer look

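Within the 4 arrays of a source, 1 array lay far from the other 3 for 5 of the 51 genes named by rule, out of 102 groups of 4 arrays, where chance flags about 1 group in 20. They were drh1 in wild-type replicate 4 (10.07), sat1 in DpDf replicate 2 (8.95), ohp1 in wild-type replicate 1 (9.69), tub6 in DpDf replicate 3 (11.75) and dhn1 in DpDf replicate 4 (6.52). Among the unnamed probe sets, Zm.17533.1.S1_at stood apart in wild-type replicate 4, at 7.68, from the other arrays of 49646-1self.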

How the results depend on the processing

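The count of called probe sets, 0 with the replicate block, was 3 with no replicate block, 3 without the genotype term, 1 without the low-signal filter and 1 without the trend in eBayes. It was 0 with 1 value per sowing, quantile normalization, the 50th percentile filter, the pseudocount of 16, the 3′ minus 5′ covariate and either genotype alone. Leaving out sowings or arrays in turn gave between 0 and 19 calls, with 19 without both replicate 3 arrays, 8 without wild-type replicate 3 and 0 otherwise; the remaining sowing of a source is then assumed to vary like the others. Probe sets at an unadjusted p under 0.05 numbered between 745 and 2302 over these fits, lowest without both replicate 2 arrays and 926 without wild-type replicate 2, and 861 in wild-type pools alone. The cause was not tested. The interaction gave 0 calls in all 4 fits, the fixed replicate block included. Of the named genes' alternative values, 1158 kept direction and side of the threshold and 1, HSP18, crossed it. None of these genes was called in the main fit, and they were picked for small p in these same arrays. The tally is therefore no check of their differences. For Zm.9955.1.A1_at, alternatives without the filter were added after the data were seen: the difference ran from 1.08 with the pseudocount to 1.84, and the adjusted p passed the threshold in all but 3, without both replicate 2 arrays (0.0724) and in wild-type (0.752) or DpDf (0.415) pools alone. Among the lists described, the medians of kinesins, DNA methyltransferases and cellulose synthases stayed within 1.5 times their value under every alternative run. Over all 34 lists, 769 of the alternative medians moved by less than the spread between arrays and 11 by more. Dropping the block, trend, genotype term or filter, or using 1 value per sowing, cannot change a list median here, so those alternatives are no check of it. Medians near 0 changed sign: the dehydration list ran from -0.12 to 0.01, heat shock from -0.06 to 0.08 and sulfur assimilation from -0.10 to 0.07. With 2 sowings a source, a source effect and a chance difference between sowings cannot be told apart for single genes.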
